A study of Homo sapiens with 12 samples.

Results

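NALM-6, a human B-cell precursor leukemia line, was compared after culture in human cerebrospinal fluid (CSF), which bathes the brain, and after culture in standard media. The comparison covers every gene that reached 1 CPM (reads per 1000000 reads of its library) in at least 3 of the 6 NALM-6 libraries. These were 12636 of the 60617 genes in the deposited table, and 14364 genes pass the same filter over all 12 libraries of the study. The series, titled for an effect of CSF on methotrexate, an antifolate drug, sequenced RNA of NALM-6 and of another B-cell precursor line, REH. The labels name no drug, and the culture fluid is what differed. The groups were NALM-6 kept for 48 h in human CSF and NALM-6 kept for 48 h in RPMI with 10% fetal calf serum (media), with 3 libraries each. The REH groups, of the same design, enter the fit through a shared estimate of spread and serve for 1 test of the difference between the lines. The cells were an established line in culture, with no host tissue, and the labels name serum for the media cultures only. The labels do not say whether replicates were separate cultures, so the p-values may reflect technical spread alone.

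The NALM-6 libraries held 27146590 to 30647110 reads in CSF and 29080212 to 37146556 reads in media. Media 1 stood apart from its replicates. Ribosomal protein genes took 21.9% of its reads, compared with 6.62% to 6.86% in CSF and 7.74% and 8.53% in media 3 and 2. The mean exonic length behind its reads was 4.62 kb, compared with 6.09 to 6.24 kb in CSF and 5.98 and 6.12 kb in media 2 and 3. The median SD of log2(CPM + 1) over genes was 0.0736 among the 3 CSF libraries, 0.489 among the 3 media libraries and 0.0714 between media 2 and 3. Most counts and medians of lists are therefore also given without media 1. For the 143 genes named and called, the log2 difference without media 1 changed by -0.71 to 0.44 and the sign of 0 genes turned. It is printed where it moved by more than 1.5-fold, and for many others. All 14 B-cell precursor markers, among them PAX5, EBF1 and VPREB1, were measured, with a summed level of 5214 to 5334 CPM in CSF and 5472 to 6028 CPM in media. Of the markers of other cell types, all 5 neuronal genes (SNAP25, SYT1, RBFOX3, NEFL and GAP43) and the choroid plexus genes TTR and KL were at 0 reads in all 6 libraries. The glial genes GFAP, AQP4 and S100B and the T-cell genes CD3D and CD3G were also at 0. MBP, the 1 glial marker measured, is a myelin gene that lymphoid cells also express. The glial markers summed to 112 to 121 CPM in CSF and to 32.8, 101 and 107 CPM in media 1, 2 and 3. The 7 stroma and endothelium markers, of which COL1A1 and PDGFRB were measured and COL3A1 and DCN were at 0, summed to 11.9 to 15.2 CPM in CSF and 4.54 to 6.19 CPM in media. Their part in the results was not tested.

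B-cell precursors use a small set of fast signalling circuits. MAP kinases switch on immediate early transcription factor genes and then their own phosphatases. NF-kB switches on cytokines, adhesion molecules and its own inhibitors, and p53 switches on cell cycle arrest and death genes. In leukemia that has spread to the central nervous system, cells live in CSF, which holds less protein, lipid and glucose than blood plasma.

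By limma more genes were higher than lower in CSF, a balance that changed with the scaling and the test. With limma on log2(CPM + 1), 1537 genes (12.2% of the 12636) were called higher in CSF and 173 (1.37%) lower, at an adjusted p under 0.05. At least 2-fold changes numbered 649 higher and 25 lower, and at least 4-fold changes 81 higher and 0 lower. Without media 1, 2540 genes (20.1%) were called, 2105 (16.7%) higher and 435 (3.44%) lower, and 1486 of the higher and 167 of the lower calls were made in both fits. No gene was called in opposite directions. With replicate numbers as a block, in case the numbers pair the libraries, 768 genes were called higher and 32 lower. Leaving out CSF 1, 2 or 3 gave 863, 942 and 816 calls in all, and leaving out media 3 gave 2585. All 3 CSF libraries lay above all 3 media libraries for 38.1% of genes and below them for 11.9%, and against media 2 and 3 alone the shares were 45.1% and 22%. The median log2 difference over all genes was 0.31, and 0.10 without media 1, so lists of genes are read against that level. The split between higher and lower calls depended on scaling, with 1053 higher and 350 lower under median-of-ratios scaling (median 0.05) and 805 higher and 635 lower under quantile normalization (median -0.02). The count tests called 802 higher and 418 lower with edgeR, and 1515 higher and 1677 lower with DESeq2, in which the lower calls were more numerous.

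Calls were repeated under 21 alternatives of scaling, filter, test, pairing and left-out library, and 265 genes, 252 higher and 13 lower, were called in each one in which they could be tested. Unless a sentence says otherwise, a gene described below as having risen or fallen belongs to these 265, and its 3 CSF libraries lay on one side of its 3 media libraries. A further limit comes from the filter. There were 236 members under 1 CPM in all 3 media libraries, which had to be higher in CSF to enter, and 201 of them were called higher. The reverse held for 13 members under 1 CPM in all CSF libraries, of which 7 were called lower. Members under 1 CPM in all media libraries made up 5 of 22 integrin and adhesion genes, 4 of 18 immediate early genes, 3 of 13 TNF receptor genes and 1 of 4 TNF ligand genes, and 2 each of the MAP kinase feedback, chemokine and cytokine, FOXO, and surface antigen lists. The NF-kB, cytokine receptor, ATF4, G1/S, heat shock, glucocorticoid, SRF and YAP, B-lineage transcription factor and interferon lists, among others, held 1 each. The counts and medians of these lists include them, so they are descriptions. For such members the lack of overlap between the groups was fixed by the filter. Examples below, beyond those flagged in place, are FOS, FOSL1, NR4A3, BIRC3, ITGAL, GDF15, CCR7, CD86, CSF1, AL035681.1 and LINC01679.

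**Figure D1:**
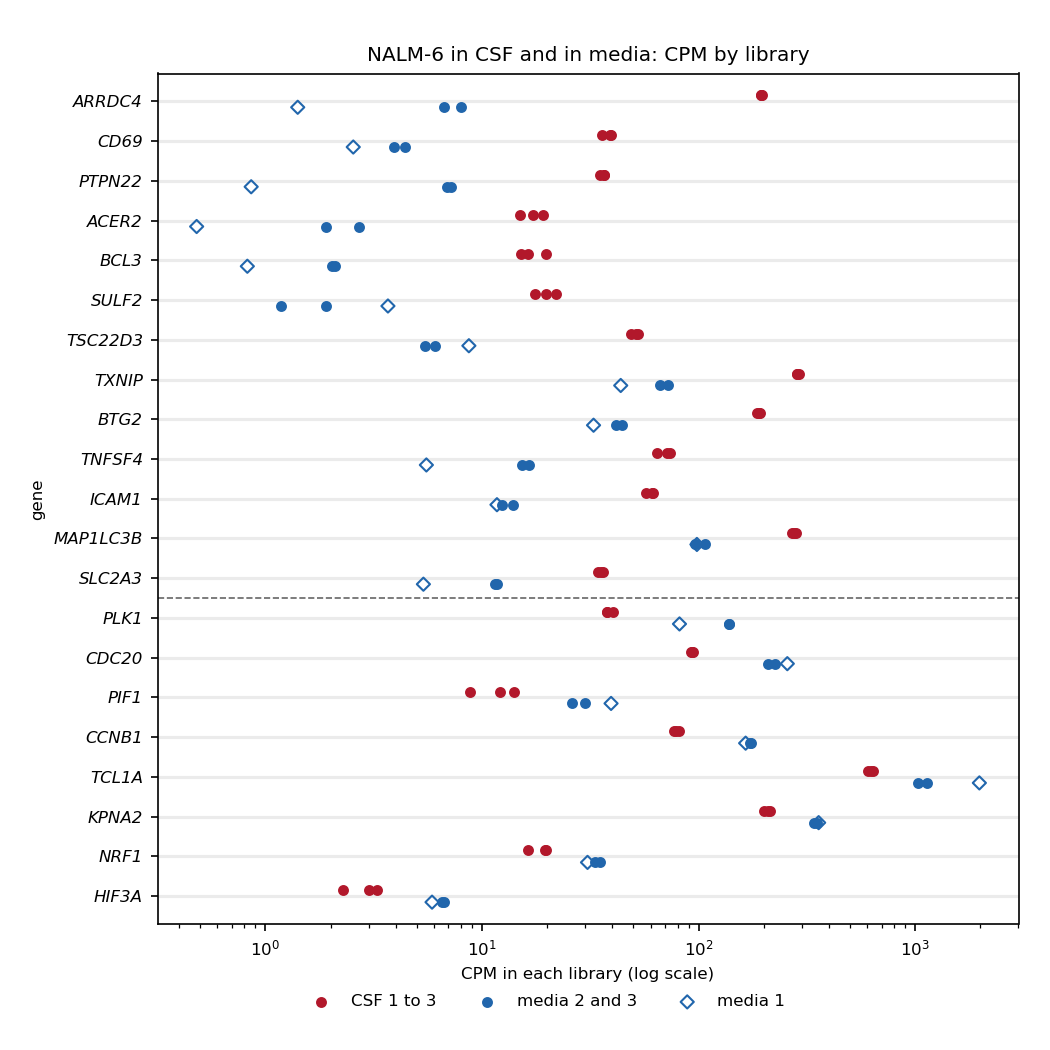
CPM of 21 genes in each of the 6 NALM-6 libraries on a log scale, with 13 genes called higher in CSF above the dashed line and 8 called lower below it. Red points are CSF 1 to 3, filled blue points media 2 and 3, and open diamonds media 1, and for each gene shown the red points do not overlap the blue ones. A lack of overlap was a condition of the rule by which many of these genes were chosen.

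ARRDC4, which encodes an arrestin-domain protein that limits glucose uptake, had the largest rise on the log2(CPM + 1) scale. By ratio of CPM, genes that were near 0 in media, such as GDF15 and TNFRSF9, rose by more. It stood at 195, 194 and 196 CPM in CSF, against 1.41, 8.04 and 6.65 CPM in media (log2 5.15, SE 0.41, adjusted p = 2.9e-05, and 4.56 without media 1). The 3 CSF libraries were nearly equal, while media 1 lay well under the other media libraries. Its paralog TXNIP, which binds thioredoxin and also restrains glucose transporters, stood at 286, 290 and 284 CPM in CSF, against 43.7, 71.9 and 66.3 CPM in media (log2 2.25, SE 0.17, adjusted p = 2.0e-05, and 2.04 without media 1).

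The upstream sequence of ARRDC4 is shown because this gene had the largest difference on the log2(CPM + 1) scale, and that of EGR1 because serum response elements of EGR1 are a textbook case of immediate early control. Both are from RefSeq on GRCh38.p14, read 5′ to 3′ toward the transcription start. The ARRDC4 stretch spans chr15:97960488-97960648 on the plus strand. Its capitals mark an E-box (CACGTG), an AP-1 site (TGANTCA) and 3 CCAAT boxes (CCAAT, also read on the other strand as ATTGG). The EGR1 stretch spans chr5:138465369-138465409 on the plus strand, and its capitals mark 2 CArG boxes.
ARRDC4: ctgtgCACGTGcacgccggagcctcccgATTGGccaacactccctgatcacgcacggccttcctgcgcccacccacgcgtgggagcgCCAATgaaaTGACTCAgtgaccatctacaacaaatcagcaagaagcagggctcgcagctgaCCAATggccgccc
EGR1: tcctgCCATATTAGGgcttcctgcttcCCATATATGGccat
Over 8832 measured protein-coding genes with a RefSeq promoter, searched on both strands over the 250 bases before the start, 9.11% held an E-box, 3.32% an AP-1 site, 35.8% a CCAAT box and 0.974% a CArG box. Of 14 immediate early promoters, 0 held an AP-1 site and 1 held a CArG box. A match describes letters and not occupancy.

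Among immediate early genes, 16 of 18 measured were called higher and 0 lower, 10 of them in every alternative, with a median log2 difference of 1.64 (1.43 without media 1, with 16 higher and 1 lower). EGR1, a zinc finger transcription factor, stood at 15.9, 15.8 and 14.3 CPM in CSF, against 0.688, 1.45 and 2.07 CPM in media (log2 2.81, SE 0.21, adjusted p = 1.5e-05, and 2.57 without media 1). The groups lay far apart. The AP-1 subunit genes FOSB, FOSL1 and JUNB rose by 1.42, 1.66 and 1.53 on the log2 scale, beside the larger rises of FOS (3.57) and JUN (4.28). The orphan nuclear receptor genes NR4A1 and NR4A3 rose by 1.65 and 1.75. NR4A1 averaged 52.3 ± 1.57 CPM in CSF and 16.1 ± 2.04 CPM in media, whereas NR4A3 averaged 3.54 ± 0.156 CPM in CSF and 0.359 ± 0.144 CPM in media (SD, n = 3 each).

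Of 16 MAP kinase feedback genes, 11 were called higher and 0 lower (median 1.23, and 0.65 without media 1, with 13 higher). DUSP10, a phosphatase of stress-activated MAP kinases, had 12.3, 14.6 and 12.1 CPM in CSF, against 0.894, 2.12 and 2.40 CPM in media (log2 2.36, SE 0.22, adjusted p = 8.1e-05). DUSP5, a nuclear phosphatase of ERK, had 8.24, 8.62 and 6.72 CPM in CSF, against 0.757, 1.32 and 1.10 CPM in media (log2 2.11, SE 0.13, adjusted p = 4.4e-06). Both kept their separation without media 1, with log2 differences of 2.1 and 2.0. IER3, a stress-response gene, and SPRY4, an inhibitor of receptor tyrosine kinase signalling, rose by 1.68 and 1.49. DUSP16, a phosphatase of JNK, averaged 62.9 ± 0.816 CPM in CSF and 15.6 ± 7.27 CPM in media (log2 2.07). It was called in all alternatives tested other than the fit of the NALM-6 libraries alone.

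Of 12 TNF family ligand genes listed, 4 were measured. All 4 were called higher, beside 12.2% of all genes (median 2.54, and 2.30 without media 1). TNFSF9, a costimulatory ligand, stood at 18.8, 19.5 and 17.3 CPM in CSF, against 2.13, 1.94 and 2.93 CPM in media (log2 2.56, SE 0.14, adjusted p = 2.8e-06). TNFSF4, the OX40 ligand, stood at 64.1, 73.9 and 71.6 CPM in CSF, against 5.54, 15.2 and 16.4 CPM in media (log2 2.53, SE 0.32, adjusted p = 5.8e-04, and 2.07 without media 1). TNF itself averaged 13.2 ± 0.794 CPM in CSF and 0.289 ± 0.0816 CPM in media (SD, n = 3 each). TNF was under 1 CPM in all media libraries, so it had to be higher in CSF to pass the filter. CD70, the ligand of CD27, averaged 4.19 ± 0.476 CPM in CSF and 1.04 ± 0.801 CPM in media. The CD70 call (log2 1.42, adjusted p = 0.00416) was lost with edgeR, with quantile normalization and with the NALM-6 libraries alone.

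On the receptor side, 7 of 13 TNF receptor genes were called higher and 0 lower (median 0.91, and 1.01 without media 1). TNFRSF9, the receptor of the TNFSF9 product, had 4.95, 5.23 and 5.06 CPM in CSF, with 440 reads in all, and 0 reads in each media library. With 3 reads over the media group as the floor, it was at least 167-fold higher in CSF. CD40, which receives T-cell help on B cells, had 5.12, 4.05 and 4.44 CPM in CSF, against 0.0344, 0.154 and 0.0538 CPM in media (log2 2.35, SE 0.14, adjusted p = 3.5e-06). Both genes were thus close to absent from media. Being under 1 CPM in all media libraries, they had to be higher in CSF to pass the filter. The TRAIL receptor gene TNFRSF10B was read in every library, with 177 ± 6.03 CPM in CSF and 39.8 ± 17.8 CPM in media (log2 2.25, and 1.80 without media 1). TNFRSF1A, the main TNF receptor, rose by 1.17 (1.14 without media 1). The decoy receptor gene TNFRSF10D rose by 2.0, a call lost with the NALM-6 libraries alone.

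Of 16 measured NF-kB targets and feedback genes, 7 were called higher and 0 lower (median 1.27, and 0.95 without media 1, with 8 higher). BCL3, a nuclear partner of NF-kB p50 and p52, stood at 19.8, 16.4 and 15.1 CPM in CSF, against 0.825, 2.03 and 2.0998 CPM in media (log2 2.80, SE 0.20, adjusted p = 1.1e-05, and 2.55 without media 1). TRAF1, an adaptor of TNF receptors, stood at 9.21, 9.47 and 8.32 CPM in CSF, against 1.31, 0.924 and 1.10 CPM in media (log2 2.25, SE 0.14, adjusted p = 4.6e-06). RELB and NFKB2, subunits of the alternative pathway, rose by 2.08 and 1.41, and BIRC3, a ubiquitin ligase of that pathway, by 1.95. TNFAIP3, which removes ubiquitin chains from NF-kB activators, averaged 222 ± 3.39 CPM in CSF and 67.1 ± 39.8 CPM in media (log2 1.97, and 1.29 without media 1). Its call was lost with the NALM-6 libraries alone and without any single CSF library. NFKBIA, the classical inhibitor, had 34.4, 33.4 and 32.8 CPM in CSF, against 31.2, 36.5 and 37.3 CPM in media, and these overlapped (log2 -0.06, adjusted p = 0.747). Of 13 list members with a RefSeq promoter, 46.2% held an NF-kB site, as did 12.5% of 1052 promoters of genes called higher and 11.6% of all 8832.

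Secreted factors and their receptors were mostly low. Of 26 chemokine and cytokine genes listed, 8 were measured, and 4 were called higher and 0 lower (median 1.02, and 0.74 without media 1). Each of the 4 calls held in every alternative, with the direction of CXCL8 and CCL4 fixed by the filter. The neutrophil chemokine gene CXCL8 had 2.22, 2.14 and 2.41 CPM in CSF and 0 reads in media, at least 74.4-fold higher in CSF. The chemokine gene CCL4 had 1.90, 1.84 and 1.53 CPM in CSF and 0 reads in media, at least 57.7-fold higher. Neither gene reached 3 CPM in any library. IL23A, a subunit of interleukin 23, rose by 1.41, and IL1B, an inflammatory cytokine, by 1.30. Of 16 receptor genes, 4 were called higher and 0 lower (median 0.75, and 0.34 without media 1, with 7 higher). CCR7, which guides lymphocytes to lymph nodes and is linked to entry of T-cell leukemia into the central nervous system in mice, had 3.08, 2.25 and 2.09 CPM in CSF, against 0, 0.0308 and 0.0269 CPM in media. With 2 media reads in all, the ratio was 122, with a 95% counting interval of 33.3 to 1.01e+03. IL21R, the interleukin 21 receptor, averaged 53.5 ± 2.52 CPM in CSF and 17.2 ± 3.03 CPM in media (log2 1.60). CXCR4, which retains B-cell precursors in marrow, had 435, 429 and 430 CPM in CSF, against 467, 527 and 474 CPM in media (log2 -0.18, adjusted p = 0.224).

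RGS genes shorten signals from chemokine and other G-protein receptors. Of 8 measured, 3 were called higher (37.5%, beside 12.2% of all genes) and 0 lower. Their median was 0.32, near the median of all genes, and 0.30 with 3 higher without media 1. RGS16 stood at 346, 327 and 324 CPM in CSF, against 73.7, 93.8 and 98.6 CPM in media (log2 1.91, SE 0.14, adjusted p = 1.1e-05). RGS9 averaged 27.8 ± 2.89 CPM in CSF and 8.92 ± 0.417 CPM in media (log2 1.53). The list is partial. RGS8, outside it and outside the counts of named genes, rose more (log2 2.13), averaging 8.44 CPM in CSF and 1.15 CPM in media. It was chosen after its values were seen. Of 22 integrin and adhesion genes, 8 were called higher (36.4%, beside 12.2% of all genes) and 0 lower. The median was 0.56, and 0.50 without media 1, with 11 higher and 1 lower. ICAM1, a ligand of leukocyte integrins, had 61.0, 61.8 and 57.4 CPM in CSF, against 11.7, 13.98 and 12.3 CPM in media (log2 2.16, SE 0.12, adjusted p = 2.8e-06). It was the single member called in every alternative. ITGAL, the integrin chain that pairs with CD18 to bind ICAM1, averaged 1.74 ± 0.310 CPM in CSF and 0.303 ± 0.248 CPM in media (log2 1.09), and lost its call with the exonic length trend removed and replicate numbers as a block. ITGA6, a laminin receptor linked to leukemia entry into the central nervous system in mice, averaged 142 ± 10.6 CPM in CSF and 53.2 ± 27.6 CPM in media (log2 1.57, and 1.03 without media 1). Its call was lost with the NALM-6 libraries alone and without any single CSF library.

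Further leading risers have other or several roles. PLAU, the urokinase-type protease, had 26.7, 24.0 and 28.0 CPM in CSF, against 3.44, 4.53 and 4.39 CPM in media (log2 2.42, SE 0.16, adjusted p = 6.4e-06). CD69, an early activation antigen of lymphocytes, had 39.5, 36.0 and 38.8 CPM in CSF, against 2.54, 4.43 and 3.93 CPM in media (log2 3.10, SE 0.16, adjusted p = 2.6e-06). PTPN22, a phosphatase that damps antigen receptor signalling, had 36.4, 36.7 and 35.1 CPM in CSF, against 0.860, 7.20 and 6.92 CPM in media (log2 2.91, SE 0.48, adjusted p = 0.0029, and 2.20 without media 1). The PTPN22 call was lost with the NALM-6 libraries alone. GDF15, a secreted factor induced by p53 and by ATF4, had 5.61, 5.38 and 4.93 CPM in CSF, against 0, 0 and 0.0269 CPM in media. With 1 media read in all, the ratio was 523, with a 95% counting interval of 93.3 to 2.07e+04.

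ACER2, a Golgi ceramidase, had 15.1, 19.0 and 17.2 CPM in CSF, against 0.481, 1.91 and 2.72 CPM in media (log2 2.84, SE 0.48, adjusted p = 0.0035). SULF2, which trims sulfate groups from heparan sulfate, had 22.0, 17.6 and 19.8 CPM in CSF, against 3.68, 1.91 and 1.18 CPM in media (log2 2.74, SE 0.23, adjusted p = 4.3e-05). In both, the groups stayed apart with media 1, which was the lowest media library for ACER2 and the highest for SULF2. TSC22D3, a transcriptional regulator induced by glucocorticoids, had 52.3, 51.6 and 48.6 CPM in CSF, against 8.70, 5.45 and 6.06 CPM in media (log2 2.77, SE 0.17, adjusted p = 4.2e-06). It was 1 of 5 glucocorticoid-induced genes called higher of 14 measured (0 lower, median 0.68, and 0.24 without media 1). ACTA2, smooth muscle actin, averaged 10.6 ± 0.849 CPM in CSF and 1.34 ± 0.844 CPM in media (log2 2.36). ACTA2 overlaps FAS on the opposite strand, and since the strand setting of the counting is not given in the sources used here, their reads may be shared. The same applies to SULF2 with NCOA3.

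The p53 target list had 21 of 24 measured genes higher and 0 lower (median 1.98, and 1.63 without media 1, with 23 higher), and 14 were called in every alternative. They include genes of several branches. Among repair and checkpoint genes, GADD45A, a stress sensor, averaged 142 ± 3.67 CPM in CSF and 31.6 ± 2.14 CPM in media (log2 2.14). XPC and DDB2, which recognise damaged bases for nucleotide excision repair, rose by 1.94 and 1.28. In the death branch, BBC3, which encodes PUMA, had 55.5, 52.0 and 51.3 CPM in CSF, against 8.49, 6.004 and 5.28 CPM in media (log2 2.85, SE 0.18, adjusted p = 6.4e-06). The p53-induced nuclear protein gene TP53INP1 averaged 46.5 ± 2.30 CPM in CSF and 6.73 ± 3.36 CPM in media (log2 2.74, and 2.30 without media 1). The stress-response genes SESN1 and SESN2, which restrain mTORC1, rose by 2.17 and 2.03, and PLK3, a stress kinase of the polo family, by 1.75. TP73, a p53 relative outside the list, rose by 2.06 and was chosen after its values were seen, as was DRAM1, a lysosomal autophagy regulator, with 1.78.

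Of 16 BCL2 family genes, 5 were called higher (31.2%) and 0 lower, beside 12.2% and 1.37% of all genes. The median was 0.59, and 0.37 without media 1, with 5 higher and 1 lower. BBC3 and BMF were called in every alternative. BMF, which binds and blocks BCL2 proteins, had 11.8, 13.4 and 14.9 CPM in CSF, against 2.34, 3.82 and 4.85 CPM in media (log2 1.66, SE 0.21, adjusted p = 5.7e-04). PMAIP1, which encodes NOXA, averaged 122 ± 1.09 CPM in CSF and 40.3 ± 22.5 CPM in media (log2 1.78, and 1.18 without media 1), and lost its call with the NALM-6 libraries alone and without any single CSF library. BCL2, the survival gene that these proteins oppose, had 119, 126 and 129 CPM in CSF, against 34.1, 98.2 and 105 CPM in media (log2 0.81, adjusted p = 0.166, and 0.30 without media 1). Its low media value came from media 1.

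FOXO and quiescence genes included ARRDC4 and TXNIP. Of 26 measured, 10 were called higher and 0 lower (median 1.03, and 0.51 without media 1, with 14 higher), 6 of them in every alternative. BTG2, an antiproliferative cofactor of mRNA decay, stood at 192, 187 and 189 CPM in CSF, against 32.7, 44.5 and 41.6 CPM in media (log2 2.24, SE 0.13, adjusted p = 3.2e-06). KLF2, a quiescence factor of lymphocytes, averaged 4.23 ± 0.412 CPM in CSF and 0.764 ± 0.138 CPM in media (log2 1.57). BTG2 was clear of media in every library. KLF2 was under 1 CPM in all media libraries, so it had to be higher in CSF to pass the filter. PIK3IP1, an inhibitor of PI3 kinase, and YPEL5 rose by 1.02 and 1.36. TOB1, a BTG relative, averaged 38.9 ± 1.79 CPM in CSF and 12.2 ± 7.52 CPM in media (log2 1.84, and 1.19 without media 1), and lost its call with the NALM-6 libraries alone and without any single CSF library.

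Of the 58 gene lists examined, 44 had 0 members called lower by limma. At least 1 member was lower at an unadjusted p under 0.05 in 17 of the 44, by edgeR in 12, by DESeq2 in 31 and by limma without media 1 in 11. The counts of 0 lower given for lists are by limma. List counts are read beside the shares of all genes, 12.2% higher and 1.37% lower, and 16.7% and 3.44% without media 1. The plot of called shares leaves out the TNF ligand list, which has 4 measured members, all higher.

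**Figure D2:**
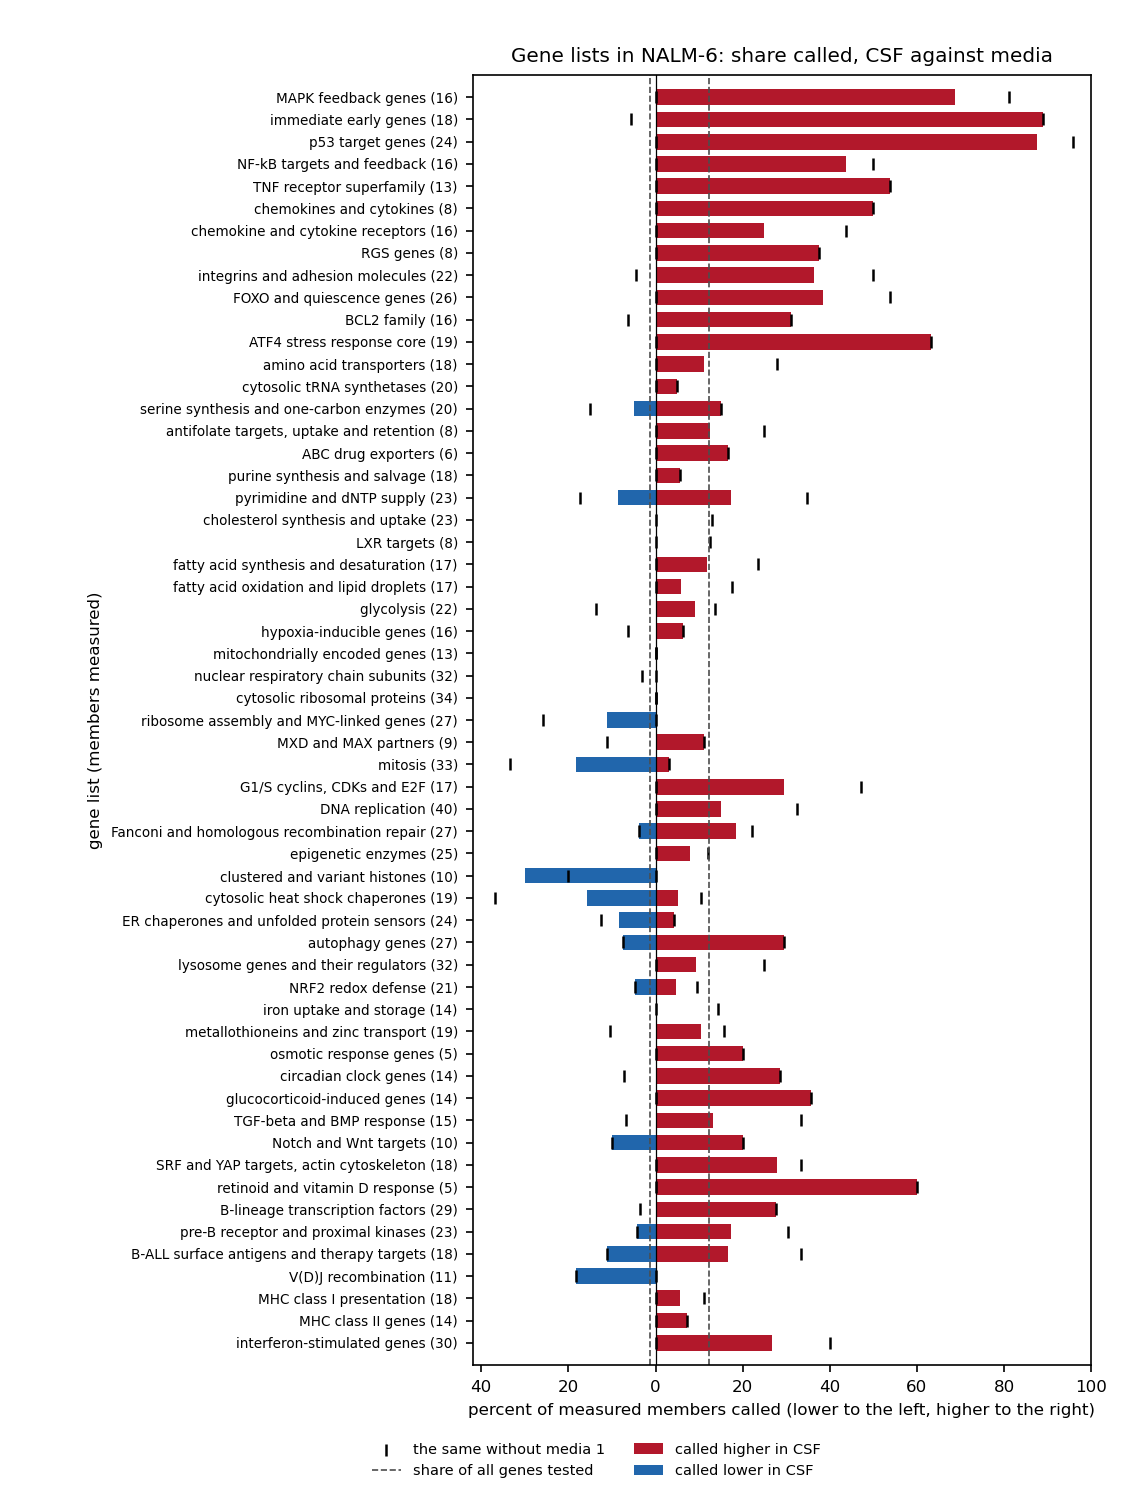
Percent of measured members of the 57 gene lists with at least 5 measured members called lower (blue, to the left) and higher (red, to the right) in CSF, with the number measured in brackets and dashed lines at 12.2% higher and 1.37% lower over all genes. Black ticks give the shares without media 1, for which the shares over all genes were 16.7% and 3.44%, and p53 targets (87.5% higher) and immediate early genes (88.9% higher) reach farthest to the right among those shown.

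Stress genes downstream of ATF4, the factor made when the kinases of the integrated stress response slow translation, were called higher in 12 of 19 cases and lower in 0 (median 0.98, and 0.71 without media 1, with 12 higher). Under median-of-ratios scaling 7 were called higher. PPP1R15A, which ends the translational block, had 194, 189 and 185 CPM in CSF, against 30.1, 34.3 and 29.99 CPM in media (log2 2.56, SE 0.14, adjusted p = 2.6e-06). TRIB3, a pseudokinase that inhibits AKT, had 332, 339 and 319.5 CPM in CSF, against 102, 81.2 and 79.3 CPM in media (log2 1.91, SE 0.15, adjusted p = 2.2e-05). For TRIB3 media 1 was the highest media library. DDIT4, an inhibitor of mTORC1, rose by 1.43. The ATF4 transcript itself averaged 521 ± 16.8 CPM in CSF and 914 ± 360 CPM in media (log2 -0.74, adjusted p = 0.0697), with media 1 at 1328 CPM. Amino acid carriers had 2 of 18 called higher and 0 lower, close to the share of all genes, and 5 without media 1. SLC1A4, a carrier of serine and other neutral amino acids, averaged 127 ± 3.002 CPM in CSF and 60.5 ± 10.3 CPM in media (log2 1.07). WARS, the tryptophan tRNA synthetase, was the single one of 20 synthetases called by limma (log2 0.93), and lost its call with the exonic length trend removed. Lower calls among the 20 numbered 3 by edgeR and 7 by DESeq2.

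Autophagy genes were called in both directions, 8 higher and 2 lower of 27 (median 0.36, and 0.10 without media 1, with the same counts). MAP1LC3B, whose product coats autophagosomes, had 281, 277 and 270.2 CPM in CSF, against 98.2, 107 and 96.4 CPM in media (log2 1.45, SE 0.12, adjusted p = 2.7e-05). GABARAPL1, of the same family, averaged 3.06 ± 0.0404 CPM in CSF and 1.11 ± 0.344 CPM in media (log2 0.96). Both were called in every alternative. Lysosome genes had 3 of 32 called higher and 0 lower, under the share of all genes, and 8 without media 1. Of 24 ER chaperone and sensor genes, 1 was called higher (4.17%) and 2 lower (8.33%), and 1 and 3 without media 1. Over all genes the shares were 12.2% and 1.37%, and 16.7% and 3.44% without media 1. ERN1, which encodes the sensor IRE1, averaged 26.3 ± 0.675 CPM in CSF and 6.90 ± 3.44 CPM in media (log2 1.91, and 1.47 without media 1), a call lost with the NALM-6 libraries alone. Of 19 cytosolic heat shock genes, 1 was called higher (5.26%) and 3 lower (15.8%), and without media 1 the counts were 2 (10.5%) and 7 (36.8%). HSPA8, the constitutive chaperone, had 2034, 2079.7 and 2059.7 CPM in CSF, against 3197, 3438 and 3259 CPM in media (log2 -0.68, SE 0.09, adjusted p = 0.00101), and lost its call with no filter and with quantile normalization.

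Most metabolic lists held few calls by limma, and pyrimidine and dNTP supply held more. Antifolate targets, uptake and retention had 1 of 8 measured genes called higher and 0 lower (median 0.20, and -0.04 without media 1, with 2 higher). The 12.5% called higher was near the 12.2% of all genes. By edgeR 0 of the 8 were called, and by DESeq2 0 were higher and 3 lower. TYMS, which makes thymidylate, had 770.1, 795 and 761 CPM in CSF, against 465, 556 and 531 CPM in media (log2 0.59, adjusted p = 0.015), a call lost with DESeq2, edgeR, median-of-ratios scaling, the NALM-6 libraries alone, the replicate block and without any single CSF library. The folate carrier gene SLC19A1 averaged 75.3 ± 3.85 CPM in CSF and 99.4 ± 15.9 CPM in media (log2 -0.39, adjusted p = 0.114). FPGS, which retains methotrexate in cells, averaged 153 ± 8.33 CPM in CSF and 214 ± 52.96 CPM in media (log2 -0.45, adjusted p = 0.128). Neither passed the limma test. TYMS overlaps ENOSF1 on the opposite strand.

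In pyrimidine and dNTP supply, 4 of 23 genes were called higher (17.4%) and 2 lower (8.7%), beside 12.2% and 1.37% of all genes. Without media 1 the counts were 8 (34.8%) and 4 (17.4%), beside 16.7% and 3.44% of all genes. RRM2, the small subunit of ribonucleotide reductase, had 974, 1011 and 1009.8 CPM in CSF, against 345, 555 and 538 CPM in media (log2 1.09, SE 0.17, adjusted p = 0.00226). DHODH, which makes orotate in mitochondria, averaged 15.9 ± 0.876 CPM in CSF and 24.9 ± 3.09 CPM in media (log2 -0.61, adjusted p = 0.00813). The RRM2 call was lost with the NALM-6 libraries alone, and the DHODH call also with the replicate block, alone or with the length trend removed. Purine synthesis had 1 of 18 called higher (5.56%, under the share of all genes) and 0 lower by limma. Lower calls were 0 by edgeR and 5 by DESeq2, and without media 1 limma called 1 higher and 0 lower. Cholesterol synthesis and uptake had 0 of 23 called by limma and by edgeR and 1 higher by DESeq2, with 3 higher at an unadjusted p under 0.05 and 3 called higher without media 1. LXR targets, which handle excess cholesterol, had 0 of 8 called by limma and by edgeR and 1 higher by DESeq2, with 4 higher at an unadjusted p under 0.05 and 1 called higher without media 1. Glycolysis had 2 of 22 called higher and 0 lower by limma, and 3 higher and 3 lower without media 1. The counts were 2 higher and 1 lower by edgeR, and 2 higher and 9 lower by DESeq2. SLC2A3, a high-affinity glucose transporter, had 36.1, 34.3 and 35.5 CPM in CSF, against 5.36, 11.5 and 11.7 CPM in media (log2 1.86, SE 0.23, adjusted p = 5.3e-04, and 1.53 without media 1). The glycolytic enzyme genes GAPDH and LDHA were not called by limma, with log2 differences of -0.73 and -0.37 and adjusted p of 0.0888 and 0.0802. For GAPDH, media 1 alone was at 8328 CPM, beside 4338 and 3914 CPM in media 2 and 3. SLC30A1, which exports zinc, averaged 23.9 ± 0.674 CPM in CSF and 6.08 ± 3.16 CPM in media (log2 1.93), a call lost with the NALM-6 libraries alone. ABCG2, a drug exporter, rose by 0.96, with the same exception.

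Of 33 mitosis genes, 1 was called higher and 6 lower (median 0.09, and -0.30 without media 1, with 1 higher and 11 lower), and 4 fell in every alternative. PLK1, a mitotic kinase, stood at 40.4, 37.7 and 37.8 CPM in CSF, against 81.6, 138 and 138 CPM in media (log2 -1.56, SE 0.19, adjusted p = 3.9e-04, and -1.81 without media 1). CCNB1, the cyclin of mitotic entry, stood at 78.8, 77.4 and 81.3 CPM in CSF, against 165, 175 and 172 CPM in media (log2 -1.10, SE 0.11, adjusted p = 1.3e-04). CDC20, which activates the anaphase-promoting complex, stood at 92.8, 92.2 and 94.5 CPM in CSF, against 257, 225 and 208 CPM in media (log2 -1.29). PSRC1, a spindle protein gene, fell by 1.27. KPNA2, a nuclear import receptor that peaks late in the cycle, stood at 199.7, 209.9 and 213 CPM in CSF, against 358, 350.4 and 341 CPM in media (log2 -0.75, SE 0.11, adjusted p = 0.00122).

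Upstream stretches of 3 fallers are shown because mitotic genes are known for pairing a CCAAT box with a CHR element (TTTGAA), and the capitals mark these letters on either strand. They span chr16:23678809-23678869 on the plus strand for PLK1, chr1:43358876-43358931 on the plus strand for CDC20 and chr15:64825657-64825697 on the minus strand for PIF1 (RefSeq, GRCh38.p14). They were chosen because they hold both motifs. PIF1 is outside the mitosis list, and the promoters of CCNB1 and PSRC1, which also fell in every alternative, held a CCAAT box and no CHR element in this window.
PLK1: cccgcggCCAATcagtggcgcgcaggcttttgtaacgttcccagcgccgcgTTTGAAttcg
CDC20: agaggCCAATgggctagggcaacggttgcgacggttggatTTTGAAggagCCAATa
PIF1: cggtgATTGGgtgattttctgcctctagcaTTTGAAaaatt
A CCAAT box was present in 88.9% and a CHR element in 51.9% of 27 mitosis-list promoters. Over the 8832 measured genes the shares were 35.8% and 8.21%. Among 110 promoters of genes called lower they were 41.8% and 10.9%.

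Lists of earlier phases held higher calls only by limma. Of 17 G1/S cyclin, CDK and E2F genes, 5 were called higher and 0 lower (median 0.84, and 0.36 without media 1, with 8 higher). CDC25A, the phosphatase that activates CDK2, had 219, 213 and 221 CPM in CSF, against 111, 127 and 127 CPM in media (log2 0.83, SE 0.11, adjusted p = 7.0e-04). CCNE1, cyclin E, averaged 52.0 ± 3.29 CPM in CSF and 24.0 ± 4.56 CPM in media (log2 1.10), and lost its call with edgeR, median-of-ratios scaling and quantile normalization. Of 40 DNA replication genes, 6 were called higher and 0 lower, near the share of all genes, and 13 without media 1. EXO1, a repair exonuclease of S phase, averaged 218 ± 3.12 CPM in CSF and 94.96 ± 32.6 CPM in media (log2 1.26, and 0.93 without media 1), a call lost with the NALM-6 libraries alone. MXD1, an antagonist of MYC at its binding sites, rose by 1.71. MYC had 477, 447 and 452 CPM in CSF, against 441, 773 and 750.2 CPM in media. These values overlapped through media 1 (log2 -0.47, adjusted p = 0.123, and -0.73 without media 1).

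Besides the mitotic genes, the 13 genes that fell in every alternative included helicase, histone and non-coding RNA genes. PIF1, a helicase, had 14.1, 8.84 and 12.1 CPM in CSF, against 39.4, 29.96 and 26.0 CPM in media (log2 -1.38, SE 0.19, adjusted p = 0.00107). HIST1H2BK and HIST1H3H, replication-dependent histone genes with near-identical copies whose reads may be split, fell by 1.35 and 1.27. HIST1H2BK averaged 1.03 ± 0.161 CPM in CSF and 4.19 ± 0.218 CPM in media, and HIST1H3H 0.265 CPM in CSF and 2.11 CPM in media. HIST1H3H was under 1 CPM in all CSF libraries, so it had to be lower in CSF to pass the filter. HIF3A, which dampens the hypoxia response, averaged 2.86 ± 0.518 CPM in CSF and 6.36 ± 0.423 CPM in media (log2 -0.94). TIGD1, a transposon-derived gene, fell by 1.11, and the non-coding genes SNHG26, CCNT2-AS1 and AC012615.1 fell by 1.11, 1.19 and 0.87. CCNT2-AS1 overlaps CCNT2 on the opposite strand. NRF1, a factor for nuclear genes of the respiratory chain, averaged 18.5 ± 1.998 CPM in CSF and 33.0 ± 2.12 CPM in media (log2 -0.80), and TCL1A, a coactivator of AKT typical of early B cells, had 641, 625 and 608 CPM in CSF, against 1979, 1135 and 1029 CPM in media (log2 -1.08). Both calls were lost with the NALM-6 libraries alone. For TCL1A, media 1 held the highest value, and the log2 difference without it was -0.79. SNHG3, a host gene of small nucleolar RNAs, averaged 51.3 ± 9.55 CPM in CSF and 142 ± 44.1 CPM in media (log2 -1.42), with the same exception.

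B-lineage genes showed selected rises. Of 29 B-lineage transcription factor genes, 8 were called higher and 0 lower (median 0.79, and 0.14 without media 1, with 8 higher and 1 lower). PRDM1, the driver of plasma cell fate, averaged 3.21 ± 0.176 CPM in CSF and 0.537 ± 0.287 CPM in media (log2 1.47), and was the single member called in every alternative. It was under 1 CPM in all media libraries, so it had to be higher in CSF to pass the filter. POU2F2, which encodes OCT2, averaged 32.5 ± 1.68 CPM in CSF and 9.87 ± 1.26 CPM in media (log2 1.63). Its coactivator gene POU2AF1 had 203, 192 and 197 CPM in CSF, against 77.6, 98.2 and 95.3 CPM in media (log2 1.12, SE 0.12, adjusted p = 1.5e-04). Both calls were lost with the length trend removed and replicate numbers as a block. The plasma cell antigen gene SDC1 rose by 1.17. The summed level of the plasma cell markers was 207 to 237 CPM in CSF, and 553, 200 and 192 CPM in media 1, 2 and 3.

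Among 18 surface antigens and therapy targets, 3 were called higher and 2 lower (median 0.46, and 0.25 without media 1, with 6 higher and 2 lower). The shares were 16.7% and 11.1%, beside 12.2% and 1.37% of all genes. MS4A1, which encodes CD20, had 3.74, 4.38 and 4.24 CPM in CSF, against 0.0344, 0.862 and 0.754 CPM in media (log2 1.77, SE 0.20, adjusted p = 3.1e-04, and 1.5 without media 1). CD24, an early B-cell antigen, had 411, 435 and 418 CPM in CSF, against 549, 632 and 619 CPM in media (log2 -0.51, adjusted p = 0.0135). The groups did not overlap for either gene. For MS4A1, under 1 CPM in all media libraries, the filter fixed this in advance. CD24 lost its call with the NALM-6 libraries alone, the replicate block, or without CSF 1 or 3. The antibody target genes CD22 and CD38 were called (log2 0.64 and 1.07, adjusted p = 0.0498 and 0.0495), and the calls were lost under 14 and 11 alternatives. In the pre-B receptor list, 4 of 23 genes were called higher (17.4%) and 1 lower (4.35%), and 7 and 1 without media 1. DAPP1, an adaptor downstream of PI3 kinase, averaged 4.77 ± 0.604 CPM in CSF and 0.906 ± 0.568 CPM in media (log2 1.64). IGHM, the mu heavy chain gene, averaged 1361 ± 50.5 CPM in CSF and 2043 ± 257 CPM in media (log2 -0.58, adjusted p = 0.0228), a call lost under 8 alternatives and turned to 0.04 by quantile normalization. DNTT, which adds bases during V(D)J recombination, averaged 641 ± 0.598 CPM in CSF and 851 ± 50.6 CPM in media (log2 -0.41, adjusted p = 0.0351), a call lost under 9 alternatives.

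Antigen presentation and interferon lists held few stable calls. MHC class I presentation had 1 of 18 genes called higher (5.56%) and MHC class II 1 of 14 (7.14%), with 0 lower in both. Without media 1, 2 and 1 were higher. Both shares were under the 12.2% of all genes. Of 30 interferon-stimulated genes, 8 were called higher (26.7%) and 0 lower (median 0.46, and 0.28 without media 1, with 12 higher). SOCS1, a feedback inhibitor of JAK kinases, averaged 2.46 ± 0.125 CPM in CSF and 0.683 ± 0.0636 CPM in media (log2 1.04), and was the single one called in every alternative. It was under 1 CPM in all media libraries, so it had to be higher in CSF to pass the filter. TRIM22, an antiviral gene, averaged 167 ± 11.2 CPM in CSF and 63.8 ± 30.5 CPM in media (log2 1.52, and 1.02 without media 1). Its call was lost with the NALM-6 libraries alone, the replicate block, and without any single CSF library. Of 18 SRF, YAP and actin genes, 5 were called higher and 0 lower (median 0.66, and 0.26 without media 1, with 6 higher). RHOB, a stress-induced small GTPase, had 23.6, 24.8 and 20.98 CPM in CSF, against 1.82, 4.43 and 3.85 CPM in media (log2 2.52, SE 0.21, adjusted p = 4.2e-05). CNN2, a calponin of the actin cytoskeleton, rose by 1.18, and ID2, an inhibitor of B-cell transcription factors, by 1.55. NOTCH1 averaged 102 ± 6.27 CPM in CSF and 29.1 ± 15.6 CPM in media (log2 1.96, and 1.40 without media 1), and lost its call with the NALM-6 libraries alone and without any single CSF library.

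A further set was chosen after the values were seen, from genes called in every alternative and outside the lists. CD86, a costimulatory ligand for CD28, had 3.05, 2.32 and 2.81 CPM in CSF, against 0.378, 0.154 and 0.162 CPM in media (log2 1.60). The acid-sensing or lipid-sensing receptor genes GPR65 and GPR132 rose by 1.81 and 2.37. GPR132 averaged 10.8 ± 0.641 CPM in CSF and 1.29 ± 0.0474 CPM in media. Genes read by other immune cells included ULBP2, a ligand of an activating NK receptor (log2 1.56), MR1, which presents vitamin metabolites (1.90), and CSF1, the macrophage growth factor (1.72). The tetraspanin gene CD82 rose by 1.85, the cytidine deaminase gene APOBEC3B by 1.73 and the phosphodiesterase gene PDE4B by 1.63. Among the largest of these rises were ECM1 (2.65), PLXNB2 (2.63), TREML2 (2.56), CPEB4 (2.53) and PLEK (2.46). PLXNB2, a semaphorin receptor, had 103, 91.3 and 101 CPM in CSF, against 10.9, 17.7 and 17.5 CPM in media.

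Non-coding and receptor constant genes also stood among the risers. AL035681.1, annotated as antisense to L3MBTL2, had 17.5, 16.8 and 15.7 CPM in CSF, against 0, 0.0308 and 0.296 CPM in media (log2 4.0, SE 0.17, adjusted p = 5.6e-07). LINC01679 averaged 7.76 ± 0.872 CPM in CSF and 0.571 ± 0.0832 CPM in media (log2 2.48). TRAC, the constant gene of the T-cell receptor alpha chain, had 41.1, 36.1 and 37.0 CPM in CSF, against 6.84, 6.96 and 5.60 CPM in media (log2 2.39, SE 0.16, adjusted p = 9.3e-06). Only TRAC and NKG7 of 8 T and NK cell markers were measured, and CD3D and CD3G were at 0, with a summed level of 44.2 to 49.3 CPM in CSF and 8.62 to 13.9 CPM in media. LYZ, 1 of 9 myeloid markers and the only one measured, averaged 5.47 ± 0.523 CPM in CSF and 1.40 ± 0.611 CPM in media (log2 1.46), while ELANE, FCGR3A, S100A8 and S100A9 were at 0. TCL6, a non-coding gene beside TCL1A, fell by 1.03, a call lost with the length trend removed and replicate numbers as a block.

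Gene length moved with the comparison. In deciles of exonic length, the median log2 difference was -0.12 at a median of 1.09 kb and 0.72 at 12.6 kb, and without media 1 it was -0.01 and 0.18. Genes called higher had a median exonic length of 4.92 kb and genes called lower 3.42 kb, and all genes 4.83 kb. Without media 1 the medians were 4.82 kb and 4.13 kb. With the length trend removed within each library, 1269 genes were called higher and 595 lower. The 34 ribosomal protein genes, which are short, had a median log2 difference of -0.71, and -0.27 without media 1, with 0 called in either fit by limma, 0 by edgeR and 31 lower by DESeq2, and 12 lower at an unadjusted p under 0.05. With media 1 and REH CSF 3 both left out, 29 of them were called lower, beside 4190 genes (33.2%) called higher and 1595 (12.6%) lower, 5785 (45.8%) in all.

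**Figure D3:**
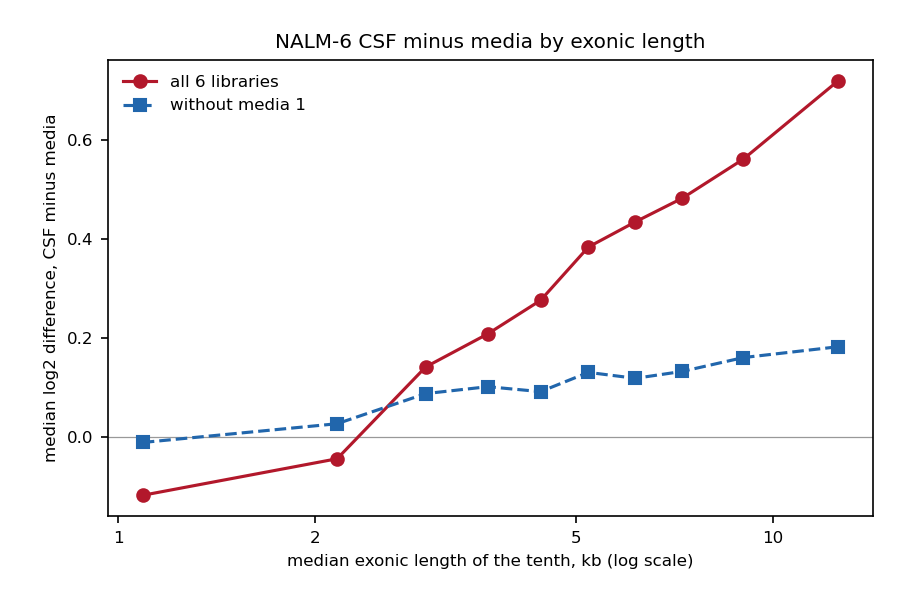
Median log2 difference between CSF and media in NALM-6 (vertical axis) for deciles of the genes ordered by exonic length (horizontal axis, kb, log scale). Red circles use all 6 libraries and climb to 0.72, and blue squares leave out media 1 and climb to 0.18.

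The response of NALM-6 was set against that of REH, the other B-cell precursor line, by testing the difference of the differences. Of 12636 genes, 94 (0.744%) responded more positively in NALM-6 and 68 (0.538%) less, 162 (1.28%) in all. Without media 1 the counts were 320 (2.53%), 198 (1.57%) and 518 (4.1%), and without REH CSF 3 as well 923 (7.3%), 581 (4.6%) and 1504 (11.9%). The block gave 25 in all, and leaving out CSF 1, 2 or 3 gave 85, 86 and 71, and REH CSF 3 alone 107. ARRDC4 stood apart most. In REH it had 5.09, 4.74 and 2.59 CPM in CSF, against 2.65, 2.15 and 2.68 CPM in media, a log2 difference of 0.52, and the lines differed by 4.63 (SE 0.59, adjusted p = 0.0034), by 4.04 without media 1 and by 3.79 also without REH CSF 3. In REH CSF 3, ribosomal protein genes took 10.3% of reads and the mean exonic length was 5.34 kb. EGR1, BCL3 and TNF stood higher in REH media than in NALM-6 media. TNF stood at 47.1, 52.0 and 64.2 CPM in REH CSF, against 33.7, 33.8 and 37.3 CPM in REH media. RGS16 went the other way, with 38.7, 44.2 and 39.4 CPM in REH CSF, against 0.209, 0.106 and 0.0992 CPM in REH media, and the NALM-6 response was lower by 3.29 on the log2 scale. SLC2A5, a fructose transporter, averaged 40.7 ± 0.676 CPM in NALM-6 CSF and 53.6 ± 9.14 CPM in NALM-6 media, with a log2 difference of 1.73 in REH, and the responses differed by -2.1 (adjusted p = 7.6e-04). Of 46 genes named whose responses differed, 13 were called with the replicate block, among them ARRDC4, TNF, RGS16 and SLC2A5, and 33, among them EGR1 and BCL3, were not. SLC2A5 was not called with the block and the length trend removed.

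**Figure D4:**
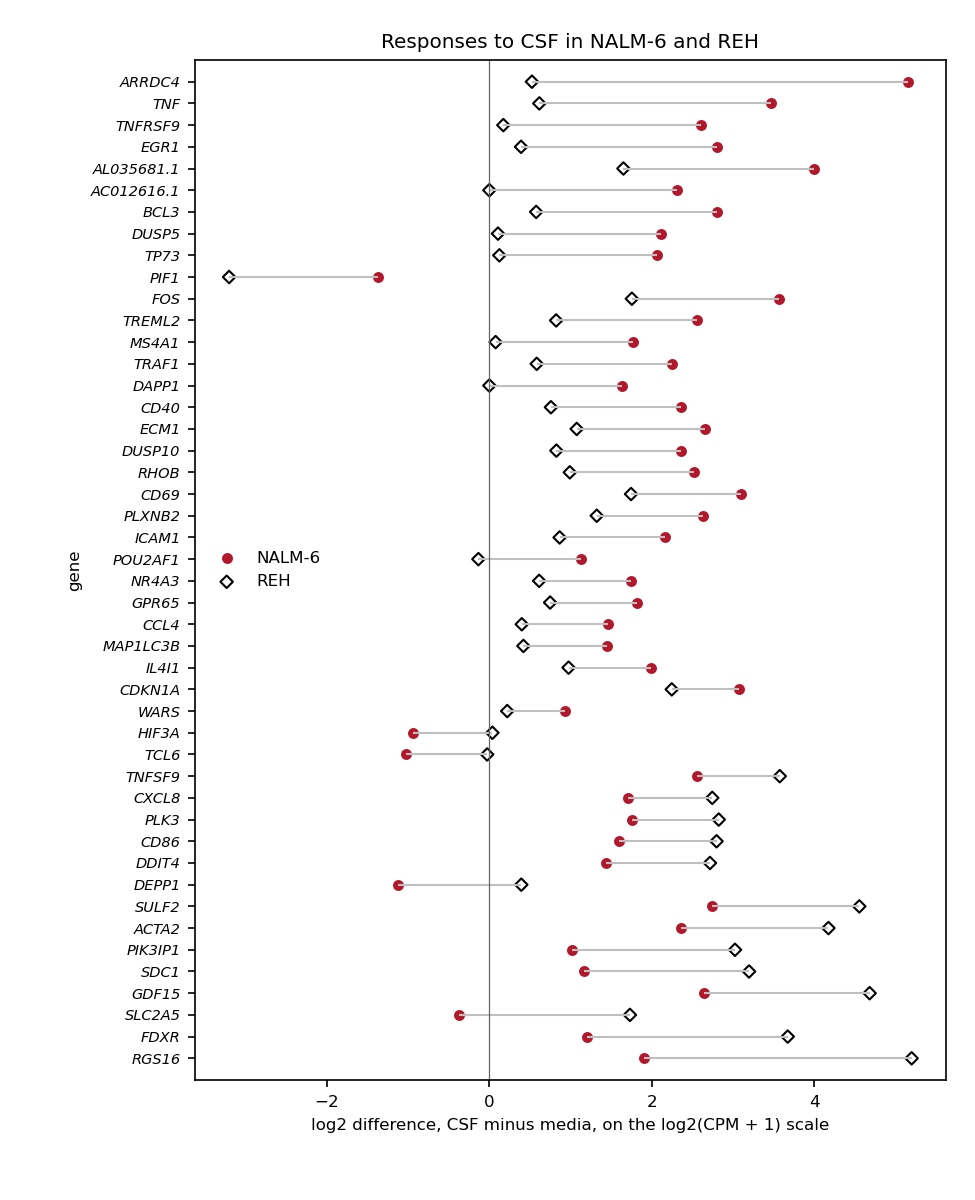
Log2 difference between CSF and media in NALM-6 (red circles) and in REH (open diamonds) for 46 genes whose responses differed between the lines, ordered by the difference. ARRDC4 at the top has 5.15 in NALM-6 and 0.52 in REH, and RGS16 at the bottom 1.91 and 5.20.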

How the data were processed

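The authors deposited 1 table of CPM (read counts scaled to 1000000 per library) for 60617 Ensembl gene IDs in 12 libraries. Per the submitters' processing notes, FastQC, Trimmomatic 0.33, HISAT2 2.1.0, featureCounts and edgeR were used with the build GRCh38. Neither annotation release nor strand mode is given in the sources used here. Per the labels' protocols the libraries were made with a stranded mRNA kit. Each CPM column divided by the value of 1 read gave whole reads for 100% of values (tolerance 1e-06). These totals are the depths in the text, and 3 reads correspond to 0.0808 to 0.111 CPM in a NALM-6 library. Floors and counting intervals (95%) cover counting error only. Library groups and replicate numbers came from the titles.

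Because the deposited unit is CPM, the test was limma 3.58.1 (R 4.3.3) on log2(CPM + 1) with a variance trend and 4 group means over 12 libraries (8 residual degrees of freedom), on the 12636 genes reaching 1 CPM in 3 or more NALM-6 libraries. It was two-sided, with Benjamini-Hochberg adjustment over the 12636 and a threshold of 0.05. On this scale the change of low genes is understated. The code was checked on simulated data. The count tests run on the recovered reads were edgeR 4.0.16, which called 1220 genes, and DESeq2 1.42.0, which called 3192. Further alternatives used no filter, a filter at 5 CPM or over 12 libraries, a pseudocount of 0.25 or 5, median-of-ratios scaling, quantile normalization, NALM-6 alone, removal of an exonic length trend, replicate numbers as a block and left-out libraries. Same-numbered CSF and media libraries correlated in their deviations from the group mean at 0.38, 0.21 and 0.19, all over 0.1, so a fit with the numbers as a block was added. CSF 2 with media 3 (0.25) and CSF 3 with media 2 (0.17) correlated to a like degree, so these values cannot settle whether the libraries are paired. The main fit has no block.

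Symbols, lengths and overlaps came from GENCODE 29, which held 58542 of the IDs. Genes named here overlap other measured genes, so reads may be shared: AL035681.1 with L3MBTL2, FAS with ACTA2, SULF2 with NCOA3, TP53INP1 with NDUFAF6, ACTA2 with STAMBPL1, TNFRSF10B with RHOBTB2, TP73 with WRAP73 and TP73-AS1, IL4I1 with ATF5 and NUP62, TNFAIP3 with AL357060.1, XPC with LSM3, TOB1 with TOB1-AS1, MXD1 with SNRNP27, ITGA6 with AC078883.1, JUNB with HOOK2, TRIM22 with TRIM5, PRDM1 with ATG5, MAP1LC3B with FBXO31, FOSB with ERCC1, SOCS1 with RMI2, WARS with WDR25, TYMS with ENOSF1 and TYMSOS, TCL1A with AL139020.1, TIGD1 with EIF4E2, DEPP1 with RASSF4, CCNT2-AS1 with CCNT2, SNHG3 with RCC1 and SNORA73B. RefSeq promoters (GRCh38.p14) matched 8832 measured protein-coding genes.

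Some results are not reported here. Members, gene lists and tests were chosen with earlier results of these data known. Named genes were, from those called with a mean of at least 5 CPM and no overlap of groups, the 15 protein-coding genes and 5 others with the largest change each way, with and without media 1, 5 each way for the difference between the lines, and up to 5 called members per list. Of the 198 called genes under this rule, 95 are not described. Genes outside this rule were named after their values were seen, namely the lower-level list members called in every alternative, the genes described as such in the text, and the 13 that fell in every alternative.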

Additional observations from a re-analysis of the deposited data

Results flagged for a closer look

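For 46 genes named here the response to CSF differed between NALM-6 and REH by limma's interaction term at an adjusted p under 0.05, and the values that follow are the NALM-6 response minus the REH response on the log2 scale. A positive value means a response more positive in NALM-6. With replicate numbers as a block, 13 of the 46 were called, namely ARRDC4, TNF, TNFRSF9, FOS, DUSP5, RGS16, PIK3IP1, TP73, GDF15, SDC1, SLC2A5, AL035681.1 and AC012616.1, and 33 were not. In 10 of the 46 all REH libraries were under 1 CPM. For CXCL8, DUSP5, TP73 and TREML2 the sign turned with edgeR and DESeq2.

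Of signalling and transcription genes, the difference was 4.63 for ARRDC4, 2.85 for TNF, 2.43 for TNFRSF9, 2.42 for EGR1, 2.23 for BCL3, 1.81 for FOS, 1.66 for TRAF1, 1.60 for CD40, 1.54 for DUSP10, 2.0 for DUSP5, 1.13 for NR4A3, 1.35 for CD69 and 1.30 for ICAM1. It was 1.06 for CCL4, 1.06 for GPR65, 1.02 for IL4I1, an amino acid oxidase, 1.57 for ECM1, 1.31 for PLXNB2 and 1.74 for TREML2. Negative values, a more positive response in REH, were -3.29 for RGS16, -1.02 for TNFSF9, -1.04 for CXCL8, -1.20 for CD86, -1.81 for SULF2 and -2.0 for PIK3IP1.

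Of p53 targets, stress genes, RHOB and ACTA2, the difference was 0.83 for the cell cycle inhibitor gene CDKN1A, 1.94 for TP73, -1.07 for PLK3, -2.47 for FDXR, -2.04 for GDF15, -1.28 for DDIT4, -1.81 for ACTA2, 1.53 for RHOB, 1.03 for MAP1LC3B and 0.71 for WARS. FDXR, a mitochondrial electron donor, stood at 88.9, 80.05 and 79.6 CPM in NALM-6 CSF, against 65.8, 27.2 and 24.4 CPM in NALM-6 media. Its NALM-6 call (log2 1.21, adjusted p = 0.0411) was lost under 14 alternatives.

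Of B-lineage genes, the difference was 1.69 for MS4A1, 1.64 for DAPP1, 1.26 for POU2AF1 and -2.03 for SDC1. DAPP1 and AC012616.1 had 0 reads in all 6 REH libraries, so their values restate the NALM-6 difference. Of metabolic and other genes, it was -2.10 for SLC2A5, -0.98 for HIF3A, -1.51 for DEPP1, 1.83 for PIF1, -1.0 for TCL6, 2.35 for AL035681.1 and 2.31 for the processed pseudogene AC012616.1. PIF1 was lower in CSF in both lines, by more in REH.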

How the results depend on the processing

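Of the 143 named genes called in the NALM-6 comparison, IGHM turned direction (0.042 with quantile normalization), as did 6 of 95 called genes that meet the naming rule and are not described. Of the 143, 109 were called in every alternative in which they were tested, 0 lost the call without media 1, and 27 lost it with the NALM-6 libraries alone. The calls of either direction, 1710, became 1092 with a filter at 5 CPM, 403 with the NALM-6 libraries alone, 3192 with DESeq2, 800 with the replicate block, 858 with the block and the length trend removed, 816 to 2585 when 1 NALM-6 or REH CSF 3 library was left out, and 5785 without media 1 and REH CSF 3. Higher calls, 1537, became 955, 387, 768 and 698 under the filter, NALM-6 alone, the block and the block with length removal, 805 with quantile normalization, 802 with edgeR, 768 to 2237 with 1 library left out and 4190 without both. Lower calls, 173, became 635 with quantile normalization, 350 with median-of-ratios scaling, 16 with NALM-6 alone, 418 with edgeR, 1677 with DESeq2, 32 with the block, 595 with the length trend removed, 47 to 435 with 1 library left out and 1595 without both. The median log2 difference became -0.018 with quantile normalization. The count of genes differing between the lines, 162, became 545 with no filter, 77 at 5 CPM, 607 with the filter over 12 libraries, 517 with DESeq2, 25 with the block, 34 with the block and length removal, 71 to 518 with 1 library left out and 1504 without both. Line differences turned with the count tests, to 5.38 (edgeR) and 4.82 (DESeq2) for CXCL8, -1.59 and -0.92 for DUSP5, -1.47 and -0.82 for TP73 and -2.37 and -2.69 for TREML2. The cause was not tested. Groups of 3, with media 1 apart from its replicates, limit what smaller changes can be seen.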
